A study of Oryza sativa with 6 samples.

Results

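The transcripts described here encode enzymes of amino acid synthesis in rice leaves. They were chosen as the transcripts that the deposited KEGG table places on the maps for biosynthesis of amino acids or for cysteine and methionine metabolism, leaving out those it also places on the map for carbon metabolism. The rule gave 40 of the 7194 listed transcripts, from 40 genes on 10 chromosomes. Of these, 25 were on the first map and 20 on the second, 5 of them on both, and 23 further transcripts of the maps were left out for their place in carbon metabolism.

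Poly(A) RNA of leaves was sequenced in 6 libraries from 3 genotypes of Oryza sativa, with 2 libraries each. The OX plants carry a transgene that overexpresses the microRNA gene MIR171f, described in the labels as whole-body overexpression, and their libraries came from the lines Ox_3 and Ox_5. The KO plants are CRISPR-Cas9 mutants of MIR171f, and both of their libraries carry line number 2 (K/O_2 and K/O_2_1), so they may represent 1 mutant line. The WT plants are nontransgenic. All plants were 4-week-old, were germinated for 3 days on Murashige and Skoog medium and were then grown 1 to a pot in a greenhouse. Whether the libraries of WT, or those of KO, were separate plants is not stated in the labels, so p-values cover only the spread among these 6 samples, and that spread may be technical. The MIR171f precursor is not among the listed transcripts and gives no check of the labels.

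Plants build most amino acids in plastids from a few carbon skeletons and from nitrogen that glutamine synthetase and glutamate synthase fix into glutamine and glutamate. Aspartate is the precursor of lysine, threonine and methionine, while the shikimate route gives phenylalanine, tyrosine and tryptophan, from which flavonoids and lignin are also made. Methionine in turn is activated to S-adenosylmethionine, the methyl donor of the cell and the precursor of the hormone ethylene.

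Each listed transcript had been selected by the authors for at least a 2-fold difference and an unadjusted p under 0.05 somewhere among their 3 comparisons, so pathway transcripts without such a change are not in the table. Calls over all members are read below against all tested transcripts, and the same background applies to the counts within each enzyme group. By the authors' deposited table, their selection criterion was met by 29 of the 40 in OX and by 17 in KO, both relative to WT, and by 24 in KO relative to OX. The share of all listed transcripts meeting it in each comparison was not computed, so these counts show nothing particular to the members. Levels of a transcript are given as CPM, the deposited estimated count scaled to the authors' effective library total, and levels of different transcripts are compared only as deposited FPKM, which is scaled to length. The totals of all reads, estimated from the deposited FPKM, counts and transcript lengths, were 28374208 to 33404962 per library. They are the plain library totals named below. Of these totals, listed transcripts held 24.3% and 24.5% in OX, 29.8% and 29.5% in KO, and 30.5% and 31.0% in WT. All 40 members passed the filter on low counts, but 5 averaged under 50 reads per library. Mean FPKM over the 6 libraries ran from 0.285 to 373, with a median of 7.34. In bulk leaf RNA, fewer cells of a type and less RNA per cell cannot be told apart.

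In OX against WT, 27 of the 40 transcripts passed an adjusted p below 0.05 (edgeR quasi-likelihood test, Benjamini-Hochberg with the number of tests set to the 27384 transcripts the authors tested), 12 higher and 15 lower. That is 67.5%, against 44.1% of all 7034 tested transcripts, of which 25% were higher and 19% lower. In KO against WT 14 were called, 9 higher and 5 lower, and this share of 35% was close to the background of 36% (25% higher, 11% lower). In OX against KO 24 were called, 9 higher and 15 lower, which is 60% against a background of 38.3% (13.3% higher, 25% lower). The median log2 fold change of the members was 0.13 in the first comparison, 0.06 in the second and -0.63 in the third, beside 0.28, 0.43 and -0.41 over all tested transcripts. With plain library totals the calls for OX against WT became 15 higher and 10 lower. The KO counts depended more on the settings: the split of 9 higher and 5 lower became 7 and 11 with DESeq2 size factors, 7 and 9 with TMM factors, and 11 and 2 with plain totals, and without KO replicate 1 or KO replicate 2 only 7 or 8 members were called. Without KO replicate 1, 5 were called higher. The number called lower was 2 without KO replicate 1, 2 without KO replicate 2 and 3 without WT replicate 2. The comparisons share libraries, so they are not independent of each other. With 2 libraries a genotype, genotypes without overlapping values were common throughout the data. OX and WT were free of overlap in 84.7% of all tested transcripts, KO and WT in 79.3%, and OX and KO in 84.0%. Among the 40 members the numbers were 37, 29 and 33, in the same order. Lack of overlap, where stated below, therefore describes a transcript's values and is not particular to the members.

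Summed over the 40 transcripts, the level was 2021 and 1988 CPM in OX, 3677 and 3696 CPM in KO, and 3909 and 3850 CPM in WT. The OX libraries were the lowest, and the largest single part of the sum was 1 aspartate family transcript described below. A total of 32 members were called in at least 1 comparison and 8 in none. The share of all tested transcripts called in at least 1 comparison was not computed, so these counts show nothing particular to the members. In 12 members OX was called against both WT and KO while KO was not called against WT, and of these 6 were lower and 6 higher in OX. That is 30.0% of the members, against 13.2% of all 7034 tested transcripts (7.04% lower and 6.14% higher in OX). These comparisons share the OX libraries.

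**Figure D1:**
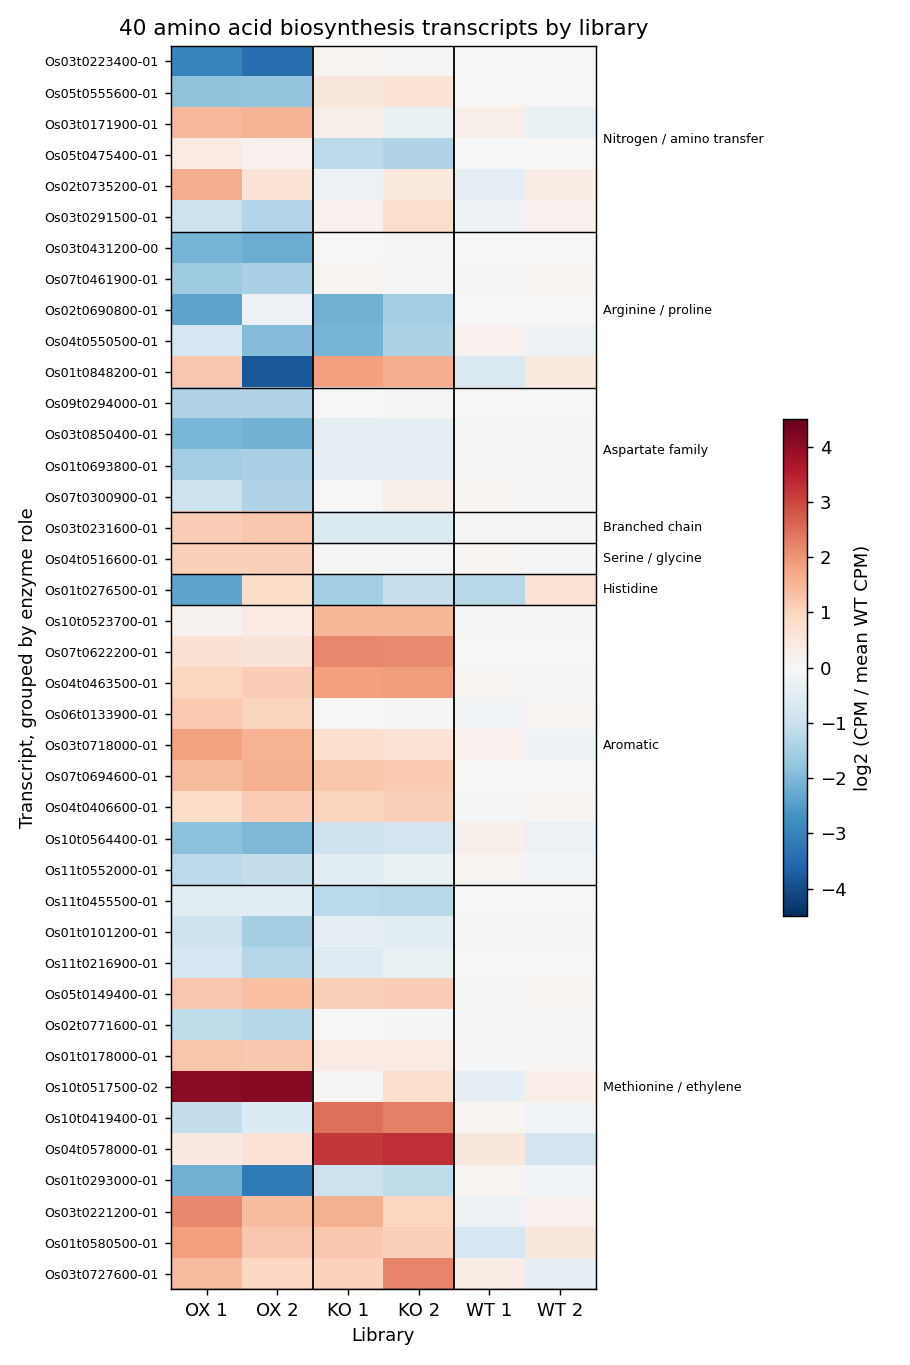
Heat map of the 40 amino acid biosynthesis transcripts (rows, grouped by enzyme role) in the 6 libraries (columns), coloured by the log2 ratio of CPM to the mean WT CPM. Red is above and blue below WT: the 4 aspartate family rows are blue in both OX libraries, and the row of Os10t0517500-02 holds the darkest red, in OX.

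The nitrogen group held 6 transcripts for enzymes that fix ammonium or move amino groups. In OX against WT 1 was higher and 2 lower, in KO against WT 1 was higher and 1 lower, and in OX against KO 2 were higher and 3 lower. Without OX replicate 1, OX replicate 2 or WT replicate 2, 0 were higher in OX against WT. Without KO replicate 1, KO replicate 2 or WT replicate 1, and with DESeq2 size factors or TMM factors, 0 were higher in KO against WT. Without OX replicate 1, OX replicate 2 or KO replicate 2, OX against KO had 1 higher and 2 lower. Its summed level was 69.9 and 64.6 CPM in OX, 163 and 160.0 CPM in KO, and 148 and 147 CPM in WT. Both transcripts that fell in OX against WT belong to the glutamine synthetase and glutamate synthase cycle.

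Os03t0223400-01 (IRGSP-1.0 chromosome 3, 6457915 to 6462146) is annotated as the root isozyme of glutamine synthetase, the enzyme that adds ammonium to glutamate. Its level was 11.0 and 8.24 CPM in OX, 92.6 and 88.4 CPM in KO, and 85.3 and 86.6 CPM in WT. Both OX libraries lay far below the other 4, and the fall was 8.92-fold against WT (log2 fold change of -3.16, SE 0.15, adjusted p = 0.000218) and 9.40-fold against KO (-3.23, SE 0.15, adjusted p = 0.000245). For KO against WT the log2 fold change was 0.08 (SE 0.14, adjusted p = 1). The annotated shoot isozyme of the same enzyme, Os02t0735200-01, had 4.03 and 2.02 CPM in OX, 1.07 and 1.79 CPM in KO, and 0.968 and 1.63 CPM in WT and was called in no comparison. Another listed transcript of that gene, Os02t0735200-03, stood at 11.3 CPM in OX replicate 1 and at 0.351 CPM in OX replicate 2, so the OX lines differed there. Further transcripts of the gene, if any, are not analysed here, and near-identical copies of glutamine synthetase may share reads.

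Os05t0555600-01 (chromosome 5, 27631211 to 27636450) encodes an NADH-dependent glutamate synthase, which makes glutamate from glutamine. It stood at 9.92 and 9.996 CPM in OX, 49.2 and 52.4 CPM in KO, and 34.5 and 34.7 CPM in WT, so the 3 genotypes did not overlap. OX was lower than WT (log2 fold change of -1.80, SE 0.08, adjusted p = 0.000181) and lower than KO (-2.35, SE 0.08, adjusted p = 0.000107). KO was called higher than WT (0.55, SE 0.08, adjusted p = 0.00933), but this call was lost with DESeq2 size factors (0.06, adjusted p = 1), with TMM factors (0.15, adjusted p = 0.562), and without WT replicate 1 (adjusted p = 0.0502), KO replicate 1 (0.0542) or KO replicate 2 (0.0872). It was the 1 member called lower in OX and higher in KO against WT. Another listed transcript of the gene, Os05t0555600-02, had 1.10 and 0.497 CPM in OX, 1.42 and 1.83 CPM in KO, and 7.01 and 1.38 CPM in WT. Its log2 fold change for KO against WT was negative (-1.37, SE 0.83, adjusted p = 0.854 by the edgeR test), and it was called in no comparison.

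The transcripts for alanine:glyoxylate aminotransferase-like proteins, which belong to a family that passes amino groups to glyoxylate, took different courses. Os03t0171900-01 had 26.2 and 28.1 CPM in OX, 11.5 and 7.90 CPM in KO, and 11.5 and 7.75 CPM in WT, and rose in OX relative to WT (log2 fold change of 1.49, SE 0.26, adjusted p = 0.0219) and against KO (1.48, SE 0.26, adjusted p = 0.0251). Both OX libraries were above the other 4, which overlapped. The call against WT was lost without WT replicate 2 (adjusted p = 0.0781), OX replicate 1 (0.0967) or OX replicate 2 (0.112), and the call against KO without OX replicate 1 (0.112), OX replicate 2 (0.129) or KO replicate 2 (0.110). Os05t0475400-01, by contrast, was lowest in KO, at 17.5 and 15.3 CPM in OX, 5.98 and 5.23 CPM in KO, and 13.2 and 13.7 CPM in WT. It fell in KO against WT (-1.26, SE 0.14, adjusted p = 0.00426) and was higher in OX than in KO (1.55, SE 0.14, adjusted p = 0.00202), while OX against WT was 0.28 (SE 0.14, adjusted p = 0.466; with plain library totals 0.65, adjusted p = 0.0403).

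An asparagine synthetase transcript, Os03t0291500-01, encodes an enzyme that stores nitrogen as asparagine. It was weakly expressed, at 1.26 and 0.994 CPM in OX, 2.84 and 4.28 CPM in KO, and 2.09 and 2.85 CPM in WT. OX was below the other libraries, but only OX against KO was called (log2 fold change of -1.66, SE 0.34, adjusted p = 0.0392), and the call was lost in 10 of the 12 alternative settings. These included leaving out any of the 6 libraries, with adjusted p = 0.056 without WT replicate 1, 0.0569 without WT replicate 2, 0.144 without OX replicate 1, 0.223 without OX replicate 2, 0.0638 without KO replicate 1 and 0.175 without KO replicate 2.

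Arginine and proline are made from glutamate, and 5 members belong to these routes. In OX against WT 0 were higher and 2 lower, in OX against KO likewise 0 and 2, and in KO against WT edgeR called 0, with 1 at an unadjusted p below 0.05, and the DESeq2 Wald test called 1. With DESeq2 size factors or TMM factors, or without OX replicate 1 or OX replicate 2, 1 was also called, lower in KO. The summed level of 69.6 and 66.9 CPM in OX, against 264 and 264 CPM in KO and 266 and 267 CPM in WT, was carried mainly by 1 transcript.

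That transcript was Os03t0431200-00 (chromosome 3, 18087593 to 18095041), annotated as similar to N-acetyl-glutamate synthase, which opens the acetylated route to ornithine and arginine. It had 53.3 and 47.9 CPM in OX, 231 and 233 CPM in KO, and 227 and 225 CPM in WT. The OX libraries lay well apart from the others: OX was 4.47-fold lower than WT (log2 fold change of -2.16, SE 0.07, adjusted p = 7.99e-05) and 4.59-fold lower than KO (-2.20, SE 0.07, adjusted p = 8.7e-05). KO against WT gave 0.04 (SE 0.06, adjusted p = 1), which turned to -0.46 (adjusted p = 0.0138) with DESeq2 size factors and -0.36 (adjusted p = 0.0342) with TMM factors.

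Os07t0461900-01 is annotated as a mitochondrial acetylornithine aminotransferase, a later enzyme of the same route. It had 6.96 and 7.77 CPM in OX, 23.4 and 19.9 CPM in KO, and 19.8 and 22.8 CPM in WT. KO and WT overlapped, and both OX libraries were below them, with a log2 fold change of -1.53 against WT (SE 0.14, adjusted p = 0.00201) and -1.55 against KO (SE 0.14, adjusted p = 0.0022).

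The 3 other members of these routes were called in no comparison, and their OX libraries differed from each other. Os02t0690800-01, a peptidase M20 family protein placed here by its KEGG map, had 2.21 CPM in OX replicate 1 and 9.70 CPM in OX replicate 2, against 2.57 and 3.95 CPM in KO and 11.5 and 11.5 CPM in WT. Without OX replicate 2 its log2 fold change for OX against WT was -2.38 (adjusted p = 0.0326). For KO against WT it was -1.82 (SE 0.72, adjusted p = 0.347), and this comparison was called without OX replicate 1 (adjusted p = 0.0238) or OX replicate 2 (0.0290), which enter it only through the shared spread. Os01t0848200-01, annotated as the proline enzyme P5CS, had 3.81 and 0.117 CPM in OX, 5.91 and 5.05 CPM in KO, and 1.05 and 2.22 CPM in WT, and without OX replicate 1 OX against KO was -5.50 (adjusted p = 0.0273). Os04t0550500-01, annotated as similar to N-acetyl glutamate kinase 2, was at 3.31 and 1.46 CPM in OX, 1.34 and 2.12 CPM in KO, and 6.54 and 4.82 CPM in WT, with all OX and KO values below WT. Its log2 fold change was -1.25 (SE 0.47, adjusted p = 0.243) in OX and -1.71 (SE 0.48, adjusted p = 0.121) in KO, each against WT, and KO against WT was called by the DESeq2 Wald test (adjusted p = 0.0335).

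The aspartate family held 4 transcripts, and all 4 fell in OX, against WT and against KO. Over all tested transcripts 19% were lower in OX against WT and 25% in OX against KO. In KO 0 were higher and 2 lower than WT by edgeR, with the same counts at an unadjusted p below 0.05 and by the DESeq2 Wald test. These KO counts followed the setting: 1 was higher and 0 lower with plain library totals, and 0 were higher and 3 lower with DESeq2 size factors or with TMM factors. Without KO replicate 1 or KO replicate 2, 0 were called, and without WT replicate 2, 1 was called lower. Their median log2 fold change was -1.43 for OX and -0.19 for KO, each against WT, and -1.33 between OX and KO. Over all tested transcripts these medians were 0.28, 0.43 and -0.41. The summed level was 833 and 829 CPM in OX, 2153 and 2176 CPM in KO, and 2351 and 2260 CPM in WT. With plain library totals 3 of the 4 were called lower in OX against WT, and with TMM factors 3 of the 4 in OX against KO.

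The most abundant of all 40 members was Os09t0294000-01 (chromosome 9, 6995055 to 7009477), with a mean FPKM of 213 in OX, 488 in KO and 418 in WT. It is annotated as similar to a chloroplast bifunctional aspartokinase and homoserine dehydrogenase, which catalyses steps on the way to threonine and methionine. Its level was 643 and 639 CPM in OX, 1639.7 and 1676 CPM in KO, and 1667 and 1589 CPM in WT. OX lay below both overlapping groups, 2.54-fold below WT (log2 fold change of -1.34, SE 0.04, adjusted p = 7.53e-05) and 2.59-fold below KO (-1.37, SE 0.04, adjusted p = 8.7e-05). KO against WT was 0.03 (SE 0.04, adjusted p = 1), but its sign and call followed the scaling, at -0.47 (adjusted p = 0.00249) with DESeq2 size factors, -0.37 (0.00455) with TMM factors and 0.22 (0.0345) with plain library totals.

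Aspartokinase phosphorylates aspartate as the entry step of the family, and 2 monofunctional transcripts were members. Os03t0850400-01 (chromosome 3, 35790044 to 35795425) had 98.1 and 93.9 CPM in OX, 304 and 300.4 CPM in KO, and 426 and 398 CPM in WT. The genotypes were ordered without overlap, OX lowest and WT highest: OX was 4.29-fold lower than WT (log2 fold change of -2.10, SE 0.05, adjusted p = 5.82e-05) and 3.14-fold lower than KO (-1.65, SE 0.05, adjusted p = 9.55e-05). KO was called lower than WT (-0.45, SE 0.05, adjusted p = 0.00526), a call that was lost with plain library totals (-0.25, adjusted p = 0.0682) and without KO replicate 1 (0.0520) or KO replicate 2 (0.0570).

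Os07t0300900-01, the other aspartokinase, was far less abundant, with a mean FPKM of 2.58 in OX, 5.55 in KO and 4.42 in WT. It had 5.54 and 4.33 CPM in OX, 10.8 and 13.2 CPM in KO, and 11.5 and 10.4 CPM in WT. OX was lower than WT (log2 fold change of -1.15, SE 0.19, adjusted p = 0.0169) and than KO (-1.28, SE 0.19, adjusted p = 0.0129). The call against WT was lost with plain library totals (-0.78, adjusted p = 0.0728) and without WT replicate 1 (0.0818), WT replicate 2 (0.0568) or OX replicate 2 (0.0895). The call against KO was lost with TMM factors (-0.90, adjusted p = 0.0512) and without OX replicate 2 (0.0740) or KO replicate 2 (0.0822).

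Threonine synthase completes threonine, and its transcript Os01t0693800-01 (chromosome 1, 28654048 to 28655948) had 85.7 and 91.6 CPM in OX, 199 and 186 CPM in KO, and 247 and 262 CPM in WT. As for Os03t0850400-01, OX was lowest and WT highest with no overlap. OX fell 2.87-fold against WT (log2 fold change of -1.52, SE 0.07, adjusted p = 0.000179) and 2.17-fold against KO (-1.12, SE 0.06, adjusted p = 0.000462). KO was called lower than WT (-0.40, SE 0.06, adjusted p = 0.0169), but not with plain library totals (-0.21, adjusted p = 0.118) and not without WT replicate 2 (0.0814), KO replicate 1 (0.0677) or KO replicate 2 (0.125).

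**Figure D2:**
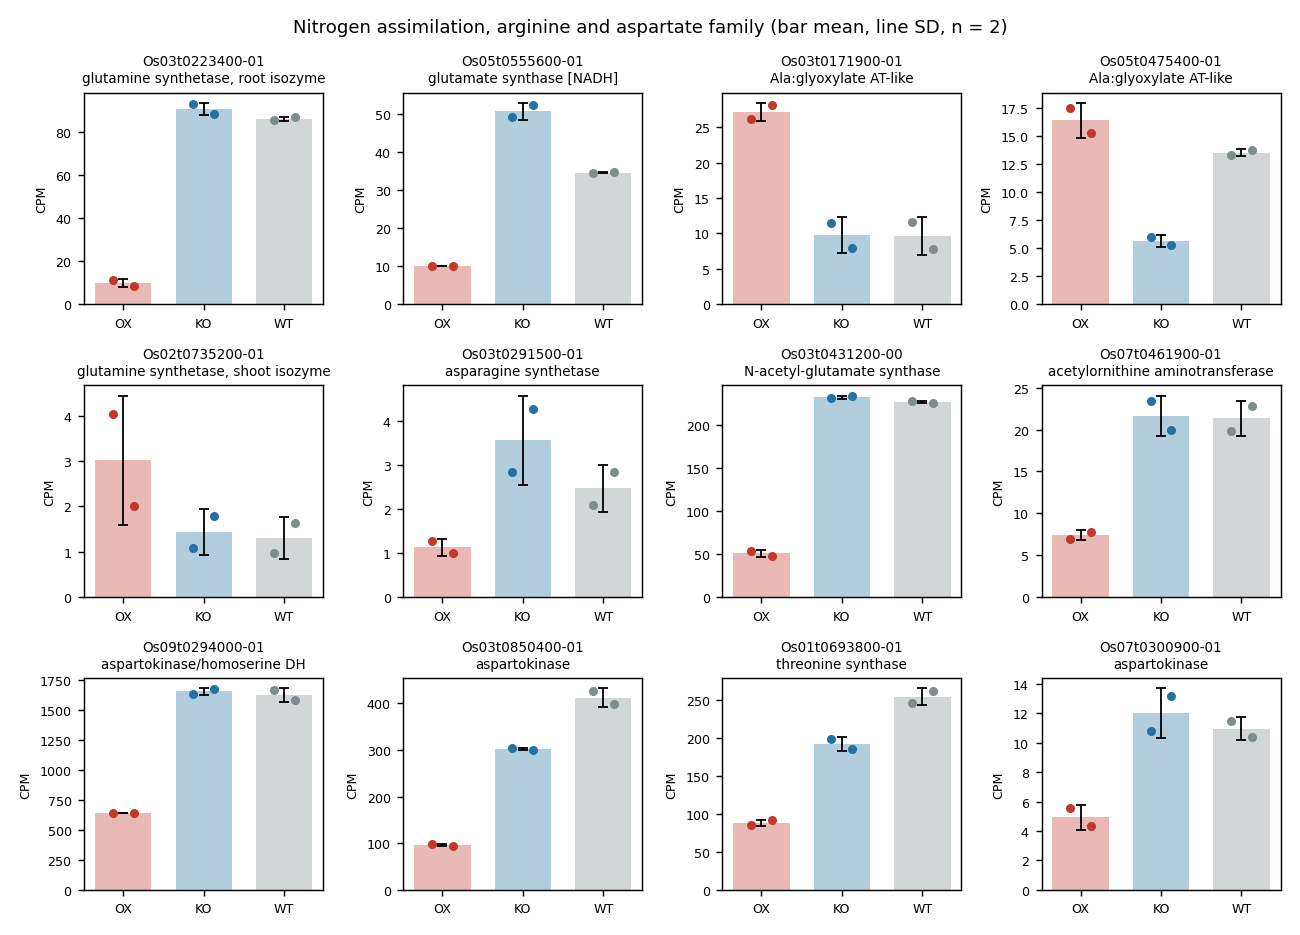
CPM of the 6 nitrogen transcripts, the 2 called arginine transcripts and the 4 aspartate family transcripts in OX, KO and WT, each panel with its own axis from 0. Points are libraries, bars are means and lines are the SD (n = 2 a genotype); OX is lowest in 9 of the 12 panels, such as Os03t0223400-01 (11.0 and 8.24 CPM), and highest for Os03t0171900-01 (26.2 and 28.1 CPM), Os05t0475400-01 and Os02t0735200-01.

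The branched-chain, serine and histidine routes were represented by 1 transcript each. Os03t0231600-01, annotated as similar to the chloroplast branched-chain aminotransferase 3, encodes an enzyme that transfers the amino group of leucine, isoleucine and valine. It had 17.4 and 18.4 CPM in OX, 5.25 and 5.19 CPM in KO, and 8.36 and 7.58 CPM in WT, with no overlap between genotypes. OX was higher than WT (log2 fold change of 1.17, SE 0.13, adjusted p = 0.00335) and than KO (1.78, SE 0.13, adjusted p = 0.000926). It was the 1 member called higher in OX and lower in KO against WT, but the fall in KO (-0.61, SE 0.13, adjusted p = 0.0439) was lost without any of the 6 libraries. The adjusted p was 0.153 without WT replicate 1, 0.0803 without WT replicate 2, 0.114 without OX replicate 1, 0.117 without OX replicate 2, 0.204 without KO replicate 1 and 0.217 without KO replicate 2. It was 0.148 with plain library totals (-0.42) and 0.0971 with the replicate block.

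Os04t0516600-01 is a pyridoxal phosphate-dependent transferase with no further annotation, put under serine by its map of glycine, serine and threonine metabolism. The 4 aspartate family transcripts are on that map too, so its place outside that family is a choice of grouping. Os04t0516600-01 had 43.2 and 43.7 CPM in OX, 21.6 and 19.6 CPM in KO, and 22.0 and 19.3 CPM in WT. OX lay above the overlapping KO and WT values, at 2.10-fold of WT (log2 fold change of 1.07, SE 0.10, adjusted p = 0.00226) and 2.11-fold of KO (1.08, SE 0.10, adjusted p = 0.00256). KO against WT was -0.0044 (SE 0.10) and 0.19 with plain library totals. With DESeq2 size factors the edgeR test called it lower in KO (-0.50, adjusted p = 0.0482). Os01t0276500-01, annotated as the bifunctional histidine enzyme hisIE, differed within genotypes, at 0.536 and 4.91 CPM in OX, 0.959 and 1.35 CPM in KO, and 1.16 and 4.36 CPM in WT. All genotypes overlapped and no comparison was called.

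The aromatic group held 9 transcripts of the shikimate route and its branches. In OX against WT 6 were higher and 2 lower, in KO against WT 5 were higher and 0 lower, and in OX against KO 2 were higher and 3 lower. Over all tested transcripts 25% were higher and 19% lower in OX against WT, and 25% higher and 11% lower in KO against WT. In OX against KO 13.3% were higher and 25% lower. The median log2 fold change of the group was 0.99 for OX and 1.03 for KO, each against WT, and -0.74 between OX and KO. Over all tested transcripts these medians were 0.28, 0.43 and -0.41. The summed level was 244 and 249 CPM in OX, 471 and 474 CPM in KO, and 159 and 161 CPM in WT, so here KO was the highest genotype. At an unadjusted p below 0.05, KO against WT had 6 higher and 1 lower. The counts also moved when a library was left out. OX against WT had 5 higher and 0 lower without OX replicate 1 or OX replicate 2, and 5 higher and 1 lower when any 1 WT or KO library was left out. KO against WT had 3 higher without KO replicate 1 and 4 without any other library. OX against KO had 1 higher when any 1 OX or KO library was left out. With DESeq2 size factors the counts became 5 higher and 2 lower for OX against WT, and 4 higher and 1 lower for KO against WT. With plain library totals OX against WT had 7 higher and 1 lower.

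The entry and middle of the shikimate route had 1 member each. DAHP synthase starts the route, and Os10t0564400-01, annotated as its isoform 2, had 1.51 and 1.32 CPM in OX, 2.80 and 3.07 CPM in KO, and 6.31 and 4.48 CPM in WT. OX was lowest and WT highest, and the fall in OX relative to WT was called (log2 fold change of -1.93, SE 0.27, adjusted p = 0.00869) except without OX replicate 1 (adjusted p = 0.0554) or OX replicate 2 (0.0723). KO against WT was -0.88 (SE 0.26, adjusted p = 0.141), and was called with DESeq2 size factors (-1.37, adjusted p = 0.0358) and TMM factors (-1.28, adjusted p = 0.0446). Os06t0133900-01, the carboxyvinyltransferase known as EPSP synthase, had 40.8 and 36.1 CPM in OX, 17.9 and 18.8 CPM in KO, and 16.4 and 19.6 CPM in WT. Only OX stood apart, 2.14-fold above WT (1.10, SE 0.13, adjusted p = 0.00418) and 2.10-fold above KO (1.07, SE 0.13, adjusted p = 0.00532).

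Anthranilate synthase takes chorismate towards tryptophan, and both transcripts annotated as similar to its beta chain were higher in OX than in WT. Os04t0463500-01 (chromosome 4, 23139191 to 23142817) had 34.0 and 37.3 CPM in OX, 61.4 and 62.8 CPM in KO, and 18.2 and 16.2 CPM in WT. KO was highest and WT lowest, with log2 fold changes relative to WT of 1.05 in OX (SE 0.09, adjusted p = 0.00168) and 1.85 in KO (SE 0.10, adjusted p = 0.000295), and of -0.80 between OX and KO (SE 0.09, adjusted p = 0.00512). In Os03t0718000-01 OX lay above KO, with 11.9 and 10.03 CPM in OX, 5.52 and 5.16 CPM in KO, and 3.87 and 2.89 CPM in WT. It was called higher in OX against WT (1.69, SE 0.21, adjusted p = 0.00611), while KO against WT was 0.66 (SE 0.21, adjusted p = 0.185). The call of OX against KO (1.04, SE 0.21, adjusted p = 0.0381) was lost without OX replicate 1 (0.221), OX replicate 2 (0.114), KO replicate 1 (0.164) or KO replicate 2 (0.203). Near-identical beta chain copies may share reads.

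Prephenate dehydratase domain proteins act on the branch to phenylalanine, and 3 members carry that annotation. Os10t0523700-01 (chromosome 10, 20345304 to 20347002) had 68.6 and 79.2 CPM in OX, 171 and 174 CPM in KO, and 59.4 and 62.6 CPM in WT. KO was 2.82-fold above WT (log2 fold change of 1.497, SE 0.08, adjusted p = 0.000379) and OX was below KO (-1.22, SE 0.08, adjusted p = 0.000748), whereas OX against WT was 0.28 (SE 0.08, adjusted p = 0.124) and was called only with plain library totals (0.64, adjusted p = 0.00361). Os07t0694600-01 had 9.70 and 10.8 CPM in OX, 8.47 and 8.15 CPM in KO, and 3.52 and 3.64 CPM in WT, and rose relative to WT in OX (1.51, SE 0.15, adjusted p = 0.00244) and in KO (1.21, SE 0.15, adjusted p = 0.00638, and 0.0507 without KO replicate 1). For OX against KO it was 0.30 (SE 0.14, adjusted p = 0.498) and 0.67 with TMM factors (adjusted p = 0.0463).

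The least abundant of the 3, Os04t0406600-01, had 4.76 and 6.02 CPM in OX, 5.45 and 5.63 CPM in KO, and 2.52 and 2.89 CPM in WT, OX and KO above WT and overlapping each other. Its calls relative to WT, in OX (log2 fold change of 0.99, SE 0.22, adjusted p = 0.0442) as well as KO (1.03, SE 0.22, adjusted p = 0.0455) were each lost without any of the 6 libraries. The adjusted p for OX against WT was 0.187 without WT replicate 1, 0.118 without WT replicate 2, 0.0853 without OX replicate 1, 0.227 without OX replicate 2, 0.0935 without KO replicate 1 and 0.0960 without KO replicate 2. For KO against WT it was 0.196, 0.125, 0.0732, 0.0785, 0.168 and 0.193 in the same order. With DESeq2 size factors the values relative to WT were 0.82 in OX (adjusted p = 0.0800) and 0.54 in KO (adjusted p = 0.322), and with TMM factors KO stood at 0.63 (adjusted p = 0.206). Both calls were also lost with the replicate block (adjusted p = 0.0694 in OX and 0.0712 in KO).

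Os07t0622200-01 (chromosome 7, 25726437 to 25730027), described only as similar to M-160-u1_1 and placed here by its KEGG map, had the lowest adjusted p of the group for KO against WT. It had 70.6 and 66.0 CPM in OX, 195 and 193 CPM in KO, and 43.5 and 43.7 CPM in WT. KO was highest and WT lowest with no overlap: KO was 4.44-fold above WT (log2 fold change of 2.15, SE 0.06, adjusted p = 6.19e-05), OX 1.57-fold above WT (0.65, SE 0.06, adjusted p = 0.00153), and OX lay below KO (-1.51, SE 0.06, adjusted p = 0.000138). The 9th aromatic transcript, Os11t0552000-01 of the tyrosine and nicotianamine aminotransferases, falls outside the rule for naming and was chosen after its values were seen. It had 2.17 and 2.34 CPM in OX, 3.60 and 3.95 CPM in KO, and 5.34 and 4.57 CPM in WT, and its call for OX against WT (-1.13, SE 0.21, adjusted p = 0.0253) was lost in every setting that left out a library. The adjusted p was 0.108 without WT replicate 1, 0.0571 without WT replicate 2, 0.154 without OX replicate 1, 0.125 without OX replicate 2, 0.0565 without KO replicate 1 and 0.0585 without KO replicate 2. It was 0.0970 with plain library totals (-0.77) and 0.0650 with the replicate block.

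**Figure D3:**
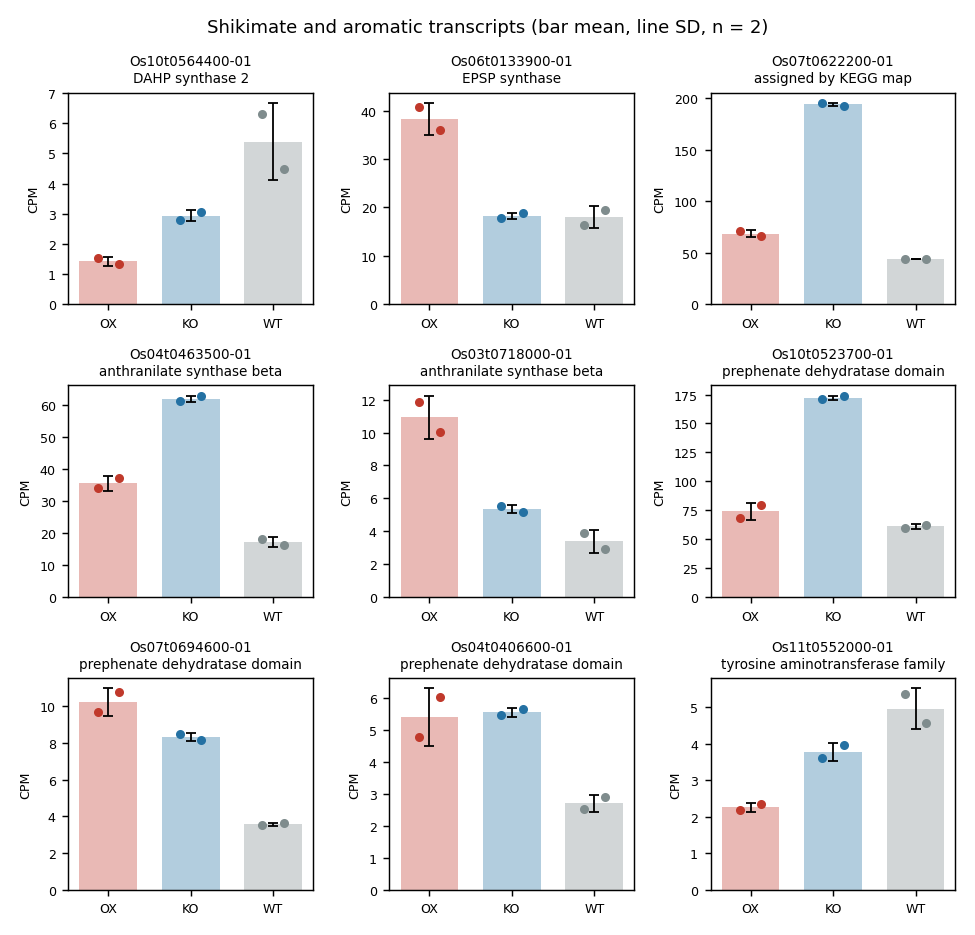
CPM of the aromatic amino acid transcripts in OX, KO and WT, each panel with its own axis from 0. Points are libraries, bars are means and lines are the SD (n = 2 a genotype); KO is highest for Os07t0622200-01 (195 and 193 CPM), Os10t0523700-01 and Os04t0463500-01, and OX is highest for Os06t0133900-01 (40.8 and 36.1 CPM).

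The methionine group held 13 transcripts, of the activated methyl cycle, methionine salvage and ethylene synthesis. In OX against WT 3 were higher and 5 lower, in KO against WT 3 were higher and 1 lower, and in OX against KO 3 were higher and 3 lower. With plain library totals OX against WT gave 4 higher and 2 lower. Without WT replicate 1 it gave 3 higher and 2 lower, and without WT replicate 2 it gave 3 of each. With DESeq2 size factors KO against WT gave 3 of each. The summed level was 744 and 712 CPM in OX, 598 and 596 CPM in KO, and 954 and 985 CPM in WT, and was dominated by 1 enzyme of the methyl cycle.

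Adenosylhomocysteinase clears the product left when S-adenosylmethionine gives up its methyl group. Its transcript Os11t0455500-01 (chromosome 11, 15420145 to 15422972) had 434 and 433 CPM in OX, 264 and 258 CPM in KO, and 605 and 632 CPM in WT, a mean FPKM of 239, 128 and 264. KO was the lowest genotype and WT the highest, with KO 2.37-fold below WT (log2 fold change of -1.24, SE 0.04, adjusted p = 9.31e-05) and OX above KO (0.73, SE 0.04, adjusted p = 0.000441). OX was called lower than WT (-0.51, SE 0.04, adjusted p = 0.00115), except with plain library totals (-0.14, adjusted p = 0.0948). S-adenosylmethionine synthetase makes the methyl donor itself, and Os01t0293000-01, annotated as its isoform 1, was scarce at 0.599 and 0.292 CPM in OX, 1.34 and 1.21 CPM in KO, and 2.87 and 2.43 CPM in WT. OX was lowest and was called lower than WT (-2.57, SE 0.41, adjusted p = 0.0140), except without WT replicate 1 (0.0665) or OX replicate 2 (0.0529).

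The largest rise among the 40 members in OX against WT was that of Os10t0517500-02 (chromosome 10, 20001168 to 20004598), a pyridoxal phosphate-dependent enzyme domain protein of cysteine and methionine metabolism. It had 57.8 and 60.3 CPM in OX, 3.64 and 5.74 CPM in KO, and 2.71 and 4.27 CPM in WT. Both OX lines were far above the overlapping KO and WT libraries, 16.9-fold above WT (log2 fold change of 4.08, SE 0.33, adjusted p = 0.00157) and 12.6-fold above KO (3.65, SE 0.32, adjusted p = 0.00242). The pyridoxal phosphate-dependent transferase Os01t0178000-01, assigned by its map, had 39.4 and 38.7 CPM in OX, 21.4 and 21.5 CPM in KO, and 15.9 and 17.1 CPM in WT. OX was highest and was called against WT (1.24, SE 0.09, adjusted p = 0.000658) and against KO (0.86, SE 0.08, adjusted p = 0.00262). KO against WT was 0.38 (SE 0.08, adjusted p = 0.0575), was called with plain totals (0.57, adjusted p = 0.0109) and by the DESeq2 Wald test (0.0178), and was below 0 with DESeq2 size factors (-0.12) and TMM factors (-0.02).

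Methionine salvage returns the sulfur-bearing remnant of ethylene and polyamine synthesis to methionine. Os01t0101200-01, which encodes a phosphatase domain protein of this pathway, had 56.7 and 38.8 CPM in OX, 79.0 and 75.5 CPM in KO, and 114 and 103 CPM in WT. OX was lowest and was called against WT (log2 fold change of -1.18, SE 0.19, adjusted p = 0.0188), but not with plain library totals (-0.81, adjusted p = 0.0769) nor without WT replicate 1 (0.107) or WT replicate 2 (0.0786). KO against WT was -0.49 (SE 0.19, adjusted p = 0.321), and was called lower with DESeq2 size factors (-0.98, adjusted p = 0.0488). OX against KO was -0.69 (SE 0.19, adjusted p = 0.115), was called by the DESeq2 Wald test (adjusted p = 0.0093), and ran from -0.99 to -0.32 over the alternatives. A further listed transcript of the gene, Os01t0101200-02, had 40.3 and 64.1 CPM in OX, 62.5 and 64.0 CPM in KO, and 106 and 129 CPM in WT. The OX lines were thus ordered oppositely in the 2 transcripts, and their sum was 97.0 and 103 CPM in OX, 142 and 139 CPM in KO, and 220 and 232 CPM in WT. Os10t0419400-01, described only as similar to SIPL, was highest in KO, at 0.347 and 0.468 CPM in OX, 4.03 and 3.44 CPM in KO, and 0.774 and 0.670 CPM in WT. It rose in KO relative to WT (2.36, SE 0.30, adjusted p = 0.00681) and was lower in OX than in KO (-3.18, SE 0.31, adjusted p = 0.00256), at an average under 50 reads per library. The remaining called member, Os11t0216900-01, described as similar to IDI2, is named after its values were seen, at 41.6 and 28.7 CPM in OX, 47.4 and 55.8 CPM in KO, and 70.7 and 70.5 CPM in WT. Its call for OX against WT (-1.01, SE 0.19, adjusted p = 0.0334) was lost without WT replicate 1 (0.152), WT replicate 2 (0.151), KO replicate 1 (0.0609) or KO replicate 2 (0.0614), with plain library totals (-0.63, adjusted p = 0.164) and with the replicate block (adjusted p = 0.0755).

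Ethylene is made by ACC synthase, which forms the precursor ACC from S-adenosylmethionine, and by ACC oxidase, which turns ACC into the hormone. The ACC synthase transcript Os04t0578000-01 was scarce outside KO, at 0.882 and 1.05 CPM in OX, 6.10 and 6.54 CPM in KO, and 0.968 and 0.377 CPM in WT. KO was 9.29-fold above WT (log2 fold change of 3.22, SE 0.46, adjusted p = 0.0110), and OX was below KO (-2.70, SE 0.44, adjusted p = 0.0173). The call of KO against WT was lost without KO replicate 1 (0.0528) or KO replicate 2 (0.0578), and that of OX against KO without OX replicate 1 (0.127), OX replicate 2 (0.108), KO replicate 1 (0.0738) or KO replicate 2 (0.0820). The other ACC synthase, Os03t0727600-01, had 0.725 and 0.526 CPM in OX, 0.575 and 1.28 CPM in KO, and 0.349 and 0.209 CPM in WT, and was called in no comparison.

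The ACC oxidase transcripts did not move together. Os05t0149400-01 (chromosome 5, 2825324 to 2826912) had 52.2 and 56.3 CPM in OX, 46.4 and 47.6 CPM in KO, and 20.8 and 23.7 CPM in WT. OX and KO lay above WT, OX by 2.44-fold (log2 fold change of 1.28, SE 0.09, adjusted p = 0.000779) and KO by 2.11-fold (1.08, SE 0.09, adjusted p = 0.00164). OX against KO was 0.21 (SE 0.09, adjusted p = 0.399), but 0.53 (0.0181) with DESeq2 size factors and 0.58 (0.0134) with TMM factors. Os02t0771600-01 (chromosome 2, 32558636 to 32562547) had 55.8 and 51.2 CPM in OX, 122 and 117 CPM in KO, and 119 and 129.5 CPM in WT, with KO and WT overlapping. It fell in OX against WT by 2.32-fold (-1.22, SE 0.07, adjusted p = 0.000449) and against KO by 2.24-fold (-1.16, SE 0.07, adjusted p = 0.000623). KO against WT was -0.05 (SE 0.07, adjusted p = 1), and was called lower with DESeq2 size factors (-0.55, 0.00846) and TMM factors (-0.45, 0.0211). The third, Os01t0580500-01, had 0.194 to 1.17 CPM and was called in no comparison, as was the homocysteine S-methyltransferase Os03t0221200-01 at 0.465 to 2.43 CPM. That transcript was called higher in OX against WT with plain library totals (2.18, adjusted p = 0.0333) and by the DESeq2 Wald test (1.82, adjusted p = 0.0392), with 1.81 (SE 0.44, adjusted p = 0.0647) by the edgeR test.

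**Figure D4:**
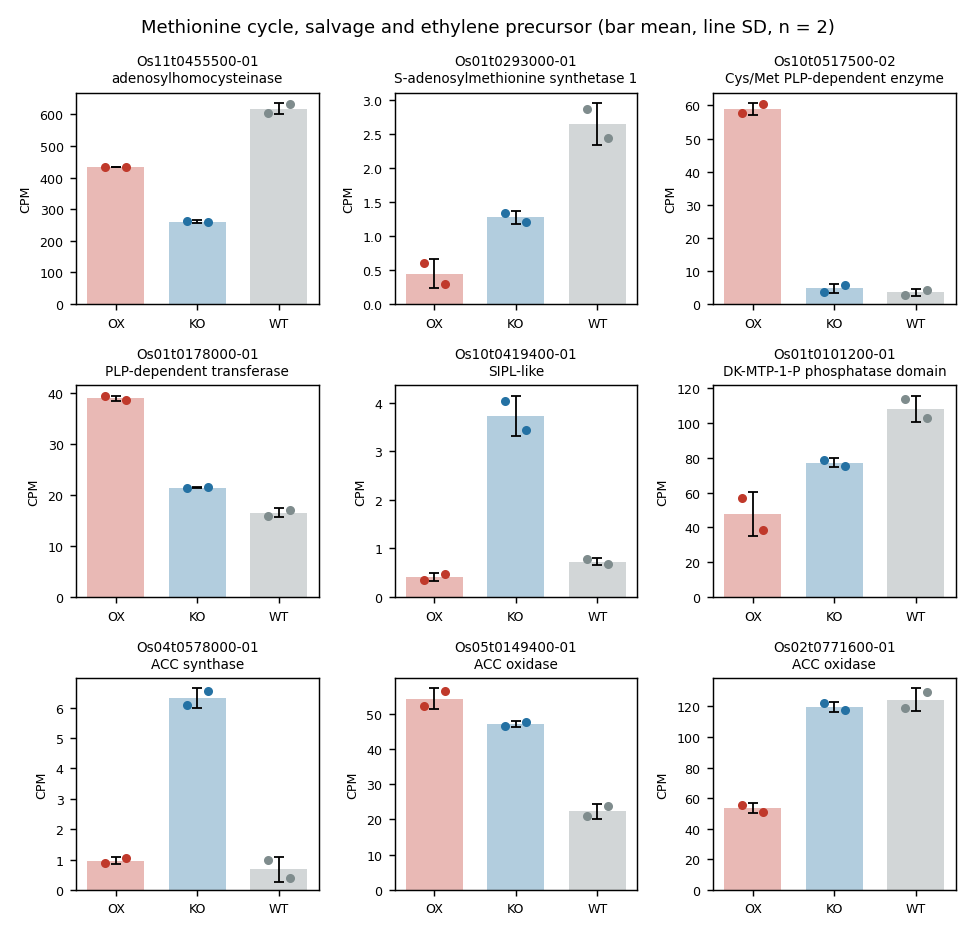
CPM of 9 transcripts of the methyl cycle, methionine salvage and ethylene synthesis in OX, KO and WT, each panel with its own axis from 0. Points are libraries, bars are means and lines are the SD (n = 2 a genotype); Os10t0517500-02 is high in OX only (57.8 and 60.3 CPM), and the ACC synthase Os04t0578000-01 in KO only (6.10 and 6.54 CPM).

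**Figure D5:**
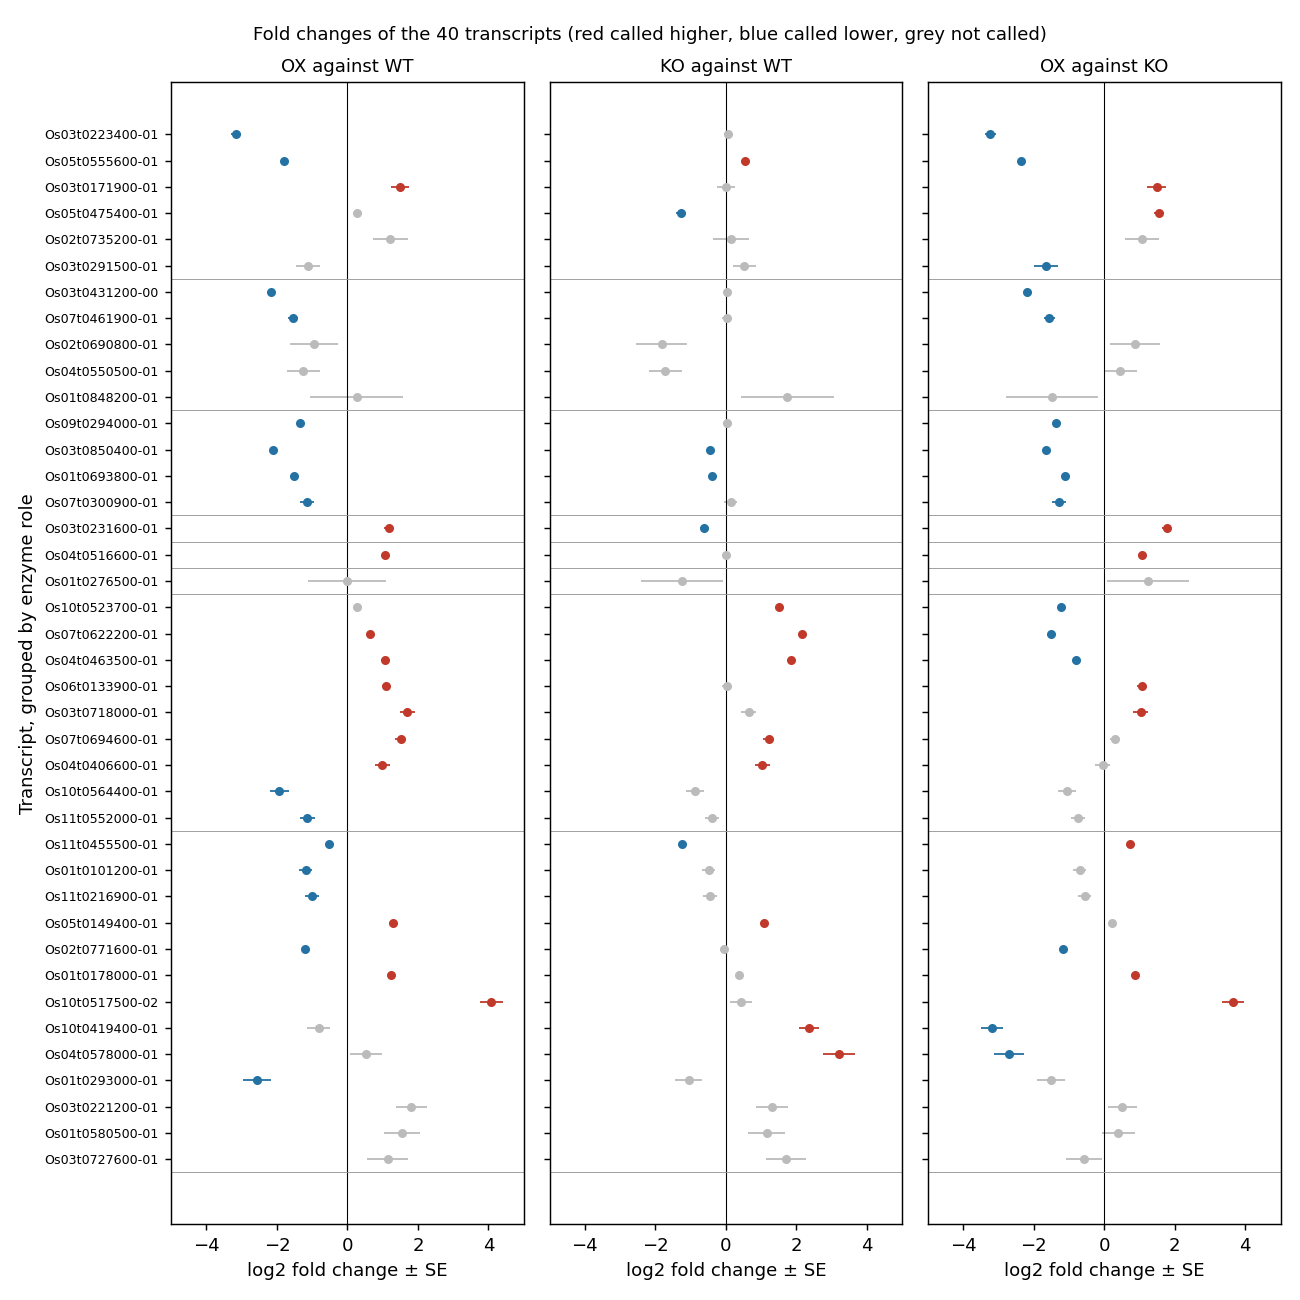
Log2 fold changes with their SE for the 40 amino acid biosynthesis transcripts, for OX and KO, each relative to WT, and for OX relative to KO; red points were called higher, blue points called lower, and grey points were not called. The values run from -3.16 for Os03t0223400-01 to 4.08 for Os10t0517500-02 in OX against WT.

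Other listed transcripts of the KEGG maps for single amino acids, which are no members, numbered 58, of which 57 were tested. Against WT, 21 were higher and 15 lower in OX and 19 were higher and 5 lower in KO, and in OX against KO 17 were higher and 17 lower. These are 63.2%, 42.1% and 59.6% of those tested, and their median log2 fold changes were 0.44, 0.41 and 0.03. The 23 transcripts shared with carbon metabolism include some of these 58, so the lists overlap and are not independent. Of the 23, 22 were tested, with 6 higher and 8 lower in OX against WT, 4 higher and 3 lower in KO against WT, and 5 higher and 7 lower in OX against KO. These are 63.6%, 31.8% and 54.5% of those tested. The members had 67.5% in OX against WT and 60% in OX against KO, beside 44.1% and 38.3% of all tested transcripts. Shares above the background in these comparisons were therefore not particular to the 40 members.

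Listed transcripts of leaf mesophyll markers (chlorophyll-binding proteins, photosystem subunits and the small subunit of Rubisco) also differed between genotypes. Their 37 transcripts summed to 37055 and 40085 CPM in OX, 60737 and 60123 CPM in KO, and 91233 and 98203 CPM in WT. Against WT, 0 were higher and 31 lower in OX, and 0 were higher and 27 lower in KO. The 80 dividing cell markers (histones, cyclins and PCNA) summed to 1060 and 1081 CPM in OX, 921 and 919 CPM in KO, and 1713 and 1837 CPM in WT, but went both ways: against WT, 9 were higher and 15 lower in OX, and 18 were higher and 13 lower in KO. The 10 senescence markers summed to 337 and 511 CPM in OX, 694 and 1173 CPM in KO, and 388 and 560 CPM in WT, with 3 higher and 4 lower in OX and 3 higher and 2 lower in KO, each against WT. None of the listed transcripts matched a root marker. At the effective totals, the mesophyll sums are in the same order of genotypes, OX lowest and WT highest, as the aspartate family and arginine sums. The aromatic, nitrogen and methionine sums are in other orders. The order of KO and WT in the aspartate sums was not checked under other scalings. Its largest transcript, Os09t0294000-01, had a log2 fold change for KO against WT of 0.22 with plain library totals and -0.47 with DESeq2 size factors. The part of these cell type markers in the results on amino acid enzymes was not tested.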

How the data were processed

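Leaf RNA of OX, KO and WT rice was isolated on RNeasy columns and made into TruSeq stranded mRNA libraries, per the labels' protocols. The submitters' processing notes name the build IRGSP-1.0. Which aligner and counter were run, and whether strand was used, the sources used here do not give, so near-identical copies, overlapping transcripts and antisense transcripts may share reads. The authors' deposited estimated counts are whole numbers that lie, in 100.0% of values, between 0.02 below and 1.02 above their FPKM converted to reads, as rounding up would give. The authors' deposited FPKM values are scaled to length and depth, and their TPM values were not used. The authors' deposited log2 normalised values gave their effective library totals, 23869522 to 34214364. The authors' signed fold score and their p-values were used only to check their selection and to count members meeting it.

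Counts were tested with edgeR 4.0.16 in R 4.3.3 (quasi-likelihood test, robust dispersion, common dispersion 0.0847), with group as the only term over all 6 libraries and the effective totals as library sizes. After filterByExpr, 7034 transcripts remained and 160 had been removed. Benjamini-Hochberg adjustment used the p-values of these 7034 transcripts, with the number of tests set to the 27384 of the authors. Values under 0.05 are called. The SE is the log2 fold change over the square root of F. A trial of the fit on simulated counts used a lower dispersion than that of the data, so it does not show how reliable the calls are. Libraries of a genotype differed by more than sampling noise (chi-square per degree of freedom 19.4 in OX, 13.6 in KO and 17.3 in WT).

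Members were grouped into 8 enzyme roles by their deposited descriptions or, where these were silent, by KEGG map. An N-acetyl-glutamate synthase that the word pattern put with nitrogen was moved by hand to arginine. Named are the largest called rises and falls (up to 12 each way for OX against WT and up to 8 each way in the other comparisons), members called in both OX and KO against WT, and the transcript with the highest mean FPKM of each role, 31 in all. Others are named by count, or as no calls, or as named after their values were seen. Members and lists were chosen with earlier results of these data known. The alternatives were DESeq2 1.42.0 size factors, TMM factors on the listed transcripts, plain library totals, the DESeq2 Wald test, no filter, a replicate block, and leaving out each library.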

Additional observations from a re-analysis of the deposited data

How the results depend on the processing

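Of the 65 called values of members, 44 were called in all 12 alternatives (18 of 27 for OX against WT, 7 of 14 for KO against WT and 19 of 24 for OX against KO). None of the called values changed sign in these alternatives. The median log2 fold change of all tested transcripts for KO against WT was 0.43, and became -0.06 with DESeq2 size factors, 0.03 with TMM factors and 0.63 with plain library totals, so KO values near 0 have no fixed direction. The members called in KO against WT, 14 in all, ranged from 7 to 14 over the leave-one-out fits, those higher (9) from 5 to 8, and those lower (5) from 2 to 6. Those lower were 11 with DESeq2 size factors, 9 with TMM factors and 2 with plain totals. The cause was not tested.

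The replicate numbers were not taken to pair the libraries: same-numbered deviations correlated at 0.0761, 0.0232 and 0.0157, all below 0.1. With the replicate block 24 members were called in OX against WT (3 calls lost), 12 in KO against WT (2 lost) and 23 in OX against KO (1 lost), and 0 were gained.

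Among the 31 members named by the rule, uncalled values changed sign as follows. For KO against WT with DESeq2 size factors, the log2 fold changes were -0.12 (Os01t0178000-01), -0.49 (Os03t0171900-01), -0.42 (Os03t0223400-01), -0.46 (Os03t0431200-00), -0.46 (Os06t0133900-01), -0.36 (Os07t0300900-01), -0.47 (Os07t0461900-01), -0.47 (Os09t0294000-01) and -0.0596 (Os10t0517500-02). With TMM factors they were -0.023 (Os01t0178000-01), -0.39 (Os03t0171900-01), -0.32 (Os03t0223400-01), -0.36 (Os03t0431200-00), -0.37 (Os06t0133900-01), -0.27 (Os07t0300900-01), -0.38 (Os07t0461900-01) and -0.37 (Os09t0294000-01). With plain totals KO against WT gave 0.14 (Os02t0771600-01) and 0.19 (Os04t0516600-01), and OX against WT gave 0.35 (Os01t0276500-01). Os04t0406600-01 in OX against KO was 0.28 with DESeq2 size factors, 0.34 with TMM factors and 0.13 with plain totals.

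Over the leave-one-out fits these uncalled values ran as follows. For KO against WT they ran from -0.11 to 0.0086 (Os02t0771600-01), -0.29 to 0.32 (Os03t0171900-01), -0.095 to 0.093 (Os04t0516600-01), -0.095 to 0.16 (Os06t0133900-01), -0.018 to 0.27 (Os07t0300900-01), -0.098 to 0.13 (Os07t0461900-01) and -0.0080 to 0.061 (Os09t0294000-01). For OX against WT they ran from -2.35 to 1.23 (Os01t0276500-01) and -0.0005 to 1.35 (Os04t0578000-01), and for OX against KO from -1.10 to 2.08 (Os01t0276500-01) and -0.22 to 0.12 (Os04t0406600-01). Uncalled values of members outside the rule also crossed 0 over the 12 alternatives. In OX against KO they ran from -0.56 to 1.57 (Os02t0690800-01), -1.03 to 0.12 (Os03t0727600-01) and -0.245 to 0.93 (Os04t0550500-01). Os01t0848200-01 ran from -3.75 to 1.22 in OX against WT, and Os02t0735200-01 from -0.34 to 0.565 in KO against WT.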
